A study of Mus musculus with 30 samples.

Results

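The genes described here encode the proteasome, its immunoproteasome subunits and the factors that assemble and regulate it. They are the protein-coding rows of the gene count table whose symbol begins with Psma, Psmb, Psmc, Psmd, Psme, Psmf or Psmg followed by a digit. The rule gave 50 genes of the 22046 protein-coding rows and of 54532 rows in all, and 4 pseudogene rows with matching names, at 8, 3, 2 and 0 counts, were left out. By role, 5 are the interferon-inducible subunits Psmb8, Psmb9, Psmb10, Psme1 and Psme2, and 31 are constitutive subunits, 14 of the 20S core and 17 of the 19S cap. The other 14 are 7 assembly chaperones, 2 further activators (Psme3 and Psme4), 1 inhibitor (Psmf1), 2 tissue-restricted subunits (Psma8 and Psmb11) and 2 genes that match by name, Psmc3ip and Psme2b.

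The 26S proteasome degrades proteins tagged with ubiquitin. Its 20S core is a barrel of alpha and beta rings that holds 3 kinds of catalytic site, carried by Psmb6 (caspase-like), Psmb7 (trypsin-like) and Psmb5 (chymotrypsin-like), and its 19S cap recognizes, unfolds and feeds in the substrate. After interferon signalling, cells make Psmb9, Psmb10 and Psmb8, which take the places of Psmb6, Psmb7 and Psmb5 in newly assembled cores. Psme1 and Psme2 form the PA28 alpha-beta activator, and the immunoproteasome yields peptides well suited to loading on MHC class I. Microglia, the resident macrophages of the brain, are known to raise these subunits when they are activated.

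Bulk RNA sequencing covered mouse microglia of the C57BL/6 strain from 5 protocols, untreated (Control) or given HMGB1, an alarmin released by damaged cells, for 4 h, with 3 libraries in each of the 10 groups. The study asked how the source and culture of microglia shape their resting state and their response to HMGB1. Protocols 1A, 1B and 1C used mixed glial cultures of neonates at postnatal days 0 to 3, each from suspensions of 5 mice. Protocol 1A had GM-CSF at 0.5 ng/ml for 10 days, 1B had no GM-CSF for 10 days and 1C had GM-CSF at 0.5 ng/ml for 21 days. In Protocol 2, brains of 3 mice aged 6 to 8 weeks were pooled, and adherent cells were fed GM-CSF and M-CSF, both at 100 ng/ml, over 7 days. In Protocol 3, CD11b-positive cells of mice aged 6 to 8 weeks were taken with magnetic beads and had 0 days of culture before the treatment. The methods give the dose of HMGB1, 1 µg/ml, for Protocol 3 alone, so that equal doses in the other protocols are not established here. Age, growth factors and days of culture change together between Protocols 1, 2 and 3, and their parts cannot be told apart.

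Libraries held 14151983 to 28564757 counts, with a median of 21640054.5, and the 50 members took 0.36% to 0.59% of them. Levels are CPM (counts scaled to library size, with TMM factors), a difference is given on the log2 scale ± SE, and rises, falls and differences named as such had an adjusted p below 0.05 in the edgeR quasi-likelihood test. All 10 microglial markers fixed for the check were above 0 in every library, with a summed level of 2210.4 to 2542 CPM in the Controls of Protocol 1A and 5989.9 to 6236 CPM in those of Protocol 3. Which protocol held the most RNA of other cells depended on the cell type. Among Controls, the summed neutrophil, B cell and endothelial markers were highest in Protocol 3, but not every marker was. The mean of Mmp8 was 3.73 CPM in Protocol 3, 20.4 CPM in Protocol 2 and 47.9 CPM in 1A. Cd79b was at 0.742 CPM in Protocol 3 and 8.25 CPM in Protocol 2, and Ighm carried most of the B cell sum. Kdr was at 17.4 CPM in Protocol 3 and 25.5 CPM in 1A, and Flt1 at 30.9 CPM in Protocol 3 and 42.8 CPM in 1C. The Protocol 3 Controls had 412 to 853 CPM over 10 neutrophil markers, against 57.1 to 64.3 CPM in Protocol 2. Over 7 B cell markers they had 148 to 184 CPM, against 9.61 to 11.4 CPM in Protocol 2. The summed fibroblast and mural, astrocyte and oligodendrocyte markers were higher in the Controls of Protocol 2 than in those of Protocol 3. Single markers also went the other way. In Protocols 2 and 3 the means were 14.9 and 17.6 CPM for Rgs5, 6.72 and 7.91 CPM for Slc1a3 and 5.81 and 6.86 CPM for Gja1. For the fibroblast and mural markers the sums were 197 to 309.8 CPM in Protocol 2 and 18.9 to 26.1 CPM in Protocol 3. In bulk samples, fewer cells of a type and less RNA per cell cannot be told apart.

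Promoter windows of RefSeq (GRCm38.p6) reach from 250 bases before to 50 bases after the start, and 42 of the 50 members matched, with 45 windows. The stretches below are shown because they hold a core motif of a factor known to act on these genes, in capitals, at an inducible subunit, at the constitutive subunit it replaces, and at 2 further members. The bases before the start of Psmb8 (chr17:34197945-34198194, plus strand) hold the gamma-activated site core TTCNNNGAA at -97. Those of Psmb5 (chr14:54617996-54618245, minus strand) and Psmb6 (chr11:70525107-70525356, plus strand) hold the antioxidant response element core TGACNNNGC at -47 and -9. The 30 bases of Psme1 (chr14:55578493-55578522, plus strand) begin with the last base before the start and otherwise follow it. They hold the interferon-stimulated response element core GAAA-NN-GAAA on the other strand, where the plus strand reads TTTCGCTTTC.
Psmb8: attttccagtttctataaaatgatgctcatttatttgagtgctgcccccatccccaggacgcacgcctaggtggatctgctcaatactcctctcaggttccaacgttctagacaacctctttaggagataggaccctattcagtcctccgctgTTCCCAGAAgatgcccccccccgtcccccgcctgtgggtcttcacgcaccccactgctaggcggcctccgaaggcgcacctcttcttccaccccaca
Psmb5: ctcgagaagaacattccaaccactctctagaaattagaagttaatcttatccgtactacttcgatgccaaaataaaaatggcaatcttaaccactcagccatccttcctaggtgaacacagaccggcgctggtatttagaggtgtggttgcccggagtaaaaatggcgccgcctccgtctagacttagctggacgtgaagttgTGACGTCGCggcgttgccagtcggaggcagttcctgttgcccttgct
Psmb6: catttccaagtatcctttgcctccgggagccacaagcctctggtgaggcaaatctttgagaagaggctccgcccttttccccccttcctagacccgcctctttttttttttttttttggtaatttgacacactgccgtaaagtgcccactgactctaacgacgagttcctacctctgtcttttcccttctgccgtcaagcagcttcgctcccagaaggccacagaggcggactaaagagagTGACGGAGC
Psme1: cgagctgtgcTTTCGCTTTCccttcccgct

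Both strands were searched and each motif was counted on its own, also where it overlaps another. The interferon-stimulated response element core was in 1 of 6 windows of the inducible members, in 2 of 27 windows of the constitutive subunits and in 3.443% of all 32851 windows. The gamma-activated site core was in 1 of 6, in 1 of 27 and in 8.298% of all windows. The antioxidant response element core was in 0 of 6, in 4 of 27 and in 12.392%, the CCAAT box in 1 of 6, in 10 of 27 and in 37.408%, and the NF-kB site in 0 of 6, in 5 of 27 and in 8.459%. These letters lie in a short window only, so that a match is a description and no match says nothing of the factor.

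HMGB1 raised the 5 inducible subunits in each of the 3 neonatal protocols, by 1.80-fold to 3.08-fold in 1A, 2.85-fold to 5.96-fold in 1B and 2.39-fold to 4.25-fold in 1C. None of them passed the test in Protocols 2 and 3. Control and HMGB1 ranges were apart for 44, 46 and 42 of the 49 members tested in 1A, 1B and 1C. In Protocols 2 and 3 they were apart for 6 of 49 and 7 of 48. The share of all genes with ranges apart is not given here, so these counts describe the members only. At an unadjusted edgeR p below 0.05 were 64.9%, 65.1% and 63.7% of all genes in 1A, 1B and 1C. In Protocols 2 and 3 these shares were 9.11% and 5.23%. The values in every library follow, gene by gene, in the order of replicates 1, 2 and 3.

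Psmb8 (ENSMUSG00000024338) encodes beta5i, the inducible chymotrypsin-like subunit. In Protocol 1A it was at 59.9, 81.4 and 115 CPM in the Controls and 204, 185 and 205 CPM with HMGB1. In 1B the Controls were at 38.4, 50.1 and 40.8 CPM and the HMGB1 libraries at 175, 202 and 208 CPM. In 1C the Controls were at 85.0, 61.6 and 105 CPM and the HMGB1 libraries at 248, 273 and 296 CPM. In none of the 3 did the groups overlap, and Control replicate 3 was the highest of its group in 1A and 1C. Protocol 2 had 135, 149.8 and 161 CPM in the Controls and 137, 157 and 165 CPM with HMGB1. Protocol 3 had 35.4, 38.4 and 34.6 CPM without and 40.1, 32.8 and 26.0 CPM with HMGB1. In both adult protocols the groups overlapped, and Protocol 3 had the lowest group means. The responses were 1.19 ± 0.26 (adjusted p = 0.0151) in 1A, 2.18 ± 0.11 (adjusted p = 1.87e-07) in 1B and 1.71 ± 0.18 (adjusted p = 3.32e-05) in 1C. They were 0.04 ± 0.08 (adjusted p = 0.966) in Protocol 2 and -0.11 ± 0.13 (adjusted p = 0.995) in Protocol 3.

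Psmb9 (ENSMUSG00000096727), the inducible partner of the Psmb6 site, rose in the same 3 protocols. In Protocol 1A it was at 25.3, 33.2 and 48.4 CPM in the Controls and 104, 98.2 and 116 CPM with HMGB1. In 1B it went from 17.8, 19.2 and 14.6 CPM to 95.3, 104 and 101 CPM. In 1C it went from 33.6, 29.6 and 49.7 CPM to 133, 150.2 and 156 CPM. The groups did not overlap in these 3 protocols and overlapped in the other 2. Protocol 2 had 69.2, 75.7 and 86.1 CPM in the Controls and 63.8, 78.6 and 85.0 CPM with HMGB1. Protocol 3 had 15, 15.3 and 11.8 CPM without and 12.2, 13.4 and 10.8 CPM with HMGB1. The responses were 1.55 ± 0.26 (adjusted p = 0.00592) in 1A, 2.54 ± 0.10 (adjusted p = 5.67e-09) in 1B and 1.97 ± 0.18 (adjusted p = 2.01e-05) in 1C, and -0.03 ± 0.11 and -0.20 ± 0.14 in Protocols 2 and 3. Psmb9 overlaps Tap1 on the opposite strand, and the sources used here do not say that counting used strand, so that reads of the shared stretch are uncertain.

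Psmb10 (ENSMUSG00000031897) encodes beta2i, the inducible subunit of the trypsin-like site, and reached the highest level of the 3 inducible catalytic subunits per base of gene length. It was at 78.7, 96.3 and 146 CPM in the Controls of 1A and 289.9, 286 and 321 CPM with HMGB1. In 1B the libraries went from 51.6, 56.8 and 54.6 CPM to 307, 319 and 312 CPM. In 1C they went from 93.8, 82.2 and 129.7 CPM to 399, 445 and 448 CPM. These are separate ranges in each protocol, and the 1C libraries with HMGB1 are the highest of all 30. Protocol 2 had 118, 137 and 144 CPM in the Controls and 114, 141 and 146 CPM with HMGB1, and Protocol 3 had 22.9, 25.5 and 23.1 CPM without and 26.5, 20.6 and 20.5 CPM with HMGB1, with overlap in both. The responses were 1.46 ± 0.25 (adjusted p = 0.00669) in 1A, 2.53 ± 0.07 (adjusted p = 4.23e-10) in 1B and 2.09 ± 0.15 (adjusted p = 7.94e-07) in 1C, and 0.00 ± 0.10 and -0.06 ± 0.11 in Protocols 2 and 3.

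Psme1 (ENSMUSG00000022216), the alpha subunit of PA28, had the smallest responses of the 5 inducible subunits in 1A, 1B and 1C. It was at 112, 141 and 189 CPM in the Controls of 1A and 251, 258 and 299.7 CPM with HMGB1, at 83.3, 81.4 and 76.4 CPM without and 219, 242 and 222 CPM with HMGB1 in 1B, and at 130.4, 108 and 167 CPM without and 302, 311 and 352 CPM with HMGB1 in 1C. The groups were apart in all 3. It was at 180.2, 203 and 223 CPM without and 166, 198 and 225 CPM with HMGB1 in Protocol 2 and at 70.0, 74.0 and 60.8 CPM without and 71.6, 75.5 and 60.9 CPM with HMGB1 in Protocol 3, with overlap in both. The responses were 0.85 ± 0.21 (adjusted p = 0.0189) in 1A, 1.51 ± 0.07 (adjusted p = 1.45e-08) in 1B and 1.26 ± 0.14 (adjusted p = 2.2e-05) in 1C, and -0.05 ± 0.11 and 0.04 ± 0.09 in the adult protocols.

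Psme2 (ENSMUSG00000079197), the beta subunit of PA28, was at 79.3, 95.0 and 102 CPM in the Controls of 1A and 303, 267 and 293 CPM with HMGB1. In 1B it was at 38.8, 52.4 and 55.9 CPM without and 283, 294 and 298 CPM with HMGB1, and in 1C at 78.2, 67.1 and 108 CPM without and 330.0, 373 and 368 CPM with HMGB1. Its response was the largest of any member in 1A and 1B, at 1.62 ± 0.09 (adjusted p = 6.1e-09) and 2.58 ± 0.13 (adjusted p = 2.64e-07), and in 1C, at 2.09 ± 0.16 (adjusted p = 1.77e-06), it was level with Psmb10. Protocol 2 had 108, 117 and 136 CPM in the Controls and 108, 119.6 and 152 CPM with HMGB1, and Protocol 3 had 48.3, 49.4 and 39.2 CPM without and 44.0, 40 and 36.9 CPM with HMGB1. The adult responses were 0.06 ± 0.14 and -0.16 ± 0.10, with overlap in both. Psme2b, a single-exon gene close in sequence to Psme2 that lies within other genes, rose by 1.44 ± 0.20, 2.17 ± 0.13 and 1.86 ± 0.12 in 1A, 1B and 1C, and counting could split reads between these copies.

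**Figure D1:**
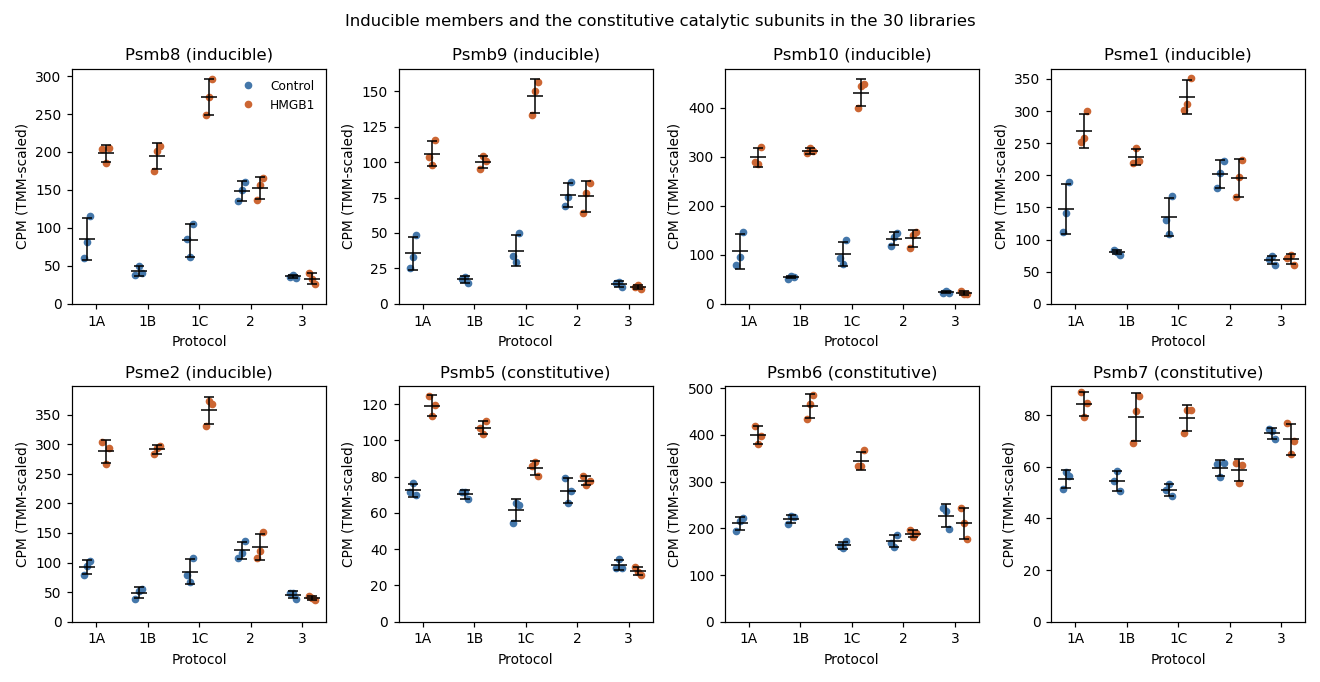
Level of the 5 inducible subunits and of Psmb5, Psmb6 and Psmb7 in each of the 30 libraries (CPM on a linear axis from 0) by protocol, Control in blue and HMGB1 in orange, with bars at mean ± SD of 3 libraries. For Psmb10 the 1C libraries with HMGB1 sit at 399 to 448 CPM, above every other library, and both groups of Protocol 3 sit between 20.5 and 26.5 CPM.

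In the order of mean levels, the HMGB1 libraries of 1C came first for all 5 inducible subunits, apart from the next group, and the 2 groups of Protocol 3 came last. The HMGB1 libraries of 1A and 1B overlapped for Psmb8, Psmb9, Psmb10 and Psme2 and were apart for Psme1, at 269.6 ± 26.3 against 228 ± 12.4 CPM (SD, n = 3). The Control and HMGB1 groups of Protocol 2 lay side by side between the neonatal HMGB1 groups and the neonatal Controls for each of the 5 by mean, with ranges that overlapped a neonatal group for Psmb10, Psme1 and Psme2. The call of Psmb8 in 1A did not hold when Control replicate 2 or HMGB1 replicates 1 or 3 were dropped, with an adjusted p of at most 0.0598, and over the 6 fits that left out 1 library the response was between 0.99 and 1.47. That of Psme1 in 1A was lost without Control replicate 2 or any one of the 3 HMGB1 libraries (adjusted p at most 0.0665, response 0.68 to 1.07).

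Markers of other cells moved with HMGB1 in these protocols too. The summed level of 8 endothelial markers was 28.1 to 49.0 CPM in Controls and 67.9 to 109 CPM with HMGB1 in 1A, 15.2 to 19.1 CPM in Controls and 40.5 to 71.5 CPM with HMGB1 in 1B and 44.0 to 59.0 CPM in Controls and 204 to 305 CPM with HMGB1 in 1C. Flt1 and Kdr carried most of it, and Cldn5 was at 0 in every library of 1B and 1C. The mean of Cdh5 went from 0.321 to 0.97 CPM in 1A, 1.643 to 2.389 CPM in 1B and 0.858 to 3.709 CPM in 1C. That of Pecam1 went from 0.423 to 0.229, 0.359 to 0.798 and 0.509 to 0.959 CPM. The neutrophil markers were at 43.2 to 61.1 CPM in Controls and 97.0 to 121 CPM with HMGB1 in 1A. There the mean of Lcn2 went from 0.205 to 50.4 CPM, S100a8 from 4.48 to 15.4 CPM and Mmp8 from 47.9 to 39.6 CPM. Ly6g and Retnlg were at 0 in both groups. The part of these cells in the proteasome responses was not tested.

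Protocol 1B, without GM-CSF, differed from 1A in its resting inducible subunits. In the Controls, 9 of the 49 members tested were lower in 1B than in 1A and 3 were higher, beside 12.6% and 18.2% of all genes. All 5 inducible subunits were among the 9, with a median of -0.94, where the 31 constitutive subunits had a median of -0.08 (3 lower, Psma3, Psma4 and Psma6, and 1 higher, Psmd8) and all genes 0.04. The differences were -0.95 ± 0.23 (adjusted p = 0.00815) for Psmb8, -1.01 ± 0.24 (adjusted p = 0.0069) for Psmb9 and -0.94 ± 0.20 (adjusted p = 0.00405) for Psmb10. Psme1 was at -0.84 ± 0.18 (adjusted p = 0.00281), Psme2 at -0.87 ± 0.18 (adjusted p = 0.00266) and Psme2b at -0.77 ± 0.17. Psmg1 and Psmg2, chaperones of the alpha ring, were higher in 1B by 0.56 ± 0.13 and 0.46 ± 0.14. With 1A and 1B alone in the fit, 22 members differed, 3 higher and 19 lower, and Psmb8 no longer passed (adjusted p = 0.0565).

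The test of the difference between the responses of 1B and 1A called 5 members higher and 1 lower, beside 3.70% and 3.21% of all genes. The one that was lower was Psmg1, at -0.67 ± 0.20 (adjusted p = 0.0341). This call was lost in 7 of 12 fits that left out 1 library, namely without any 1A Control, 1A HMGB1 replicate 1, 1B Control replicates 1 or 2 or 1B HMGB1 replicate 2. Psmb10 rose more in 1B by 1.04 ± 0.24 (adjusted p = 0.00688), Psme2 by 0.93 ± 0.22 (adjusted p = 0.00822), Psmb8 by 0.96 ± 0.27 (adjusted p = 0.0334) and Psmb9 by 0.96 ± 0.27 (adjusted p = 0.0311), and Psme2b followed at 0.70 ± 0.21. Psme1 had 0.63 ± 0.22 (adjusted p = 0.0921), and no constitutive subunit passed. The calls of Psmb8 and Psmb9 were not firm. That of Psmb8 was lost in 9 of 12 fits that left out 1 library, all but those without 1A Control replicate 1, 1B Control replicate 2 and 1B HMGB1 replicate 1, with an adjusted p of up to 0.113 and a difference of 0.68 to 1.16. That of Psmb9 was lost in 7 of 12, all but those without 1A Control replicates 1 and 2, 1A HMGB1 replicate 3, 1B Control replicate 2 and 1B HMGB1 replicate 1, with an adjusted p of up to 0.101 and a difference of 0.68 to 1.16, the lowest without 1A Control replicate 3. These comparisons share the Control libraries of both protocols with the one between Controls, and the lower Controls and the larger response of 1B are not separate evidence.

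Culture for 21 days rather than 10 left the resting inducible subunits within -0.11 and 0.10 of 1A. None of the 5 passed, and 4 members, all constitutive, were lower in 1C than in 1A against 0 higher, beside 7.91% and 13.1% of all genes. They were Psmb6 at -0.34 ± 0.08 (adjusted p = 0.00504), Psma4 at -0.26 ± 0.08, Psmd13 at -0.22 ± 0.07 and Psma1 at -0.20 ± 0.07. The count was 1 without 1A Control replicate 3 and 2 without 1A Control replicate 2. In the response, 1 member was higher in 1C than in 1A and 7 were lower, beside 5.46% and 8.53% of all genes. Psma5 was the one that was higher, at 0.39 ± 0.12 (adjusted p = 0.0273), a call lost in 7 of 12 fits that left out 1 library (1A Control replicate 3, 1A HMGB1 replicates 2 and 3, 1C Control replicates 1 and 2, 1C HMGB1 replicates 1 and 3). The 5 inducible subunits had a median difference of 0.43 and none passed, although their levels with HMGB1 were highest in 1C. Among those with a lower response in 1C were Psmg1 at -0.89 ± 0.20 (adjusted p = 0.00241), Psmd5 at -0.77 ± 0.14 (adjusted p = 0.000256) and Psmd1, a scaffold of the 19S base, at -0.56 ± 0.10 (adjusted p = 0.000178), and the other 4 were Psmc2, Psmc6, Psmd3 and Psme3. Of all genes called in this comparison, 39.0% were higher with TMM and 54.1% with DESeq2 size factors, and 1 and 6 members were then called higher and lower. With no filter on low counts the balance turned, with 7 members called higher and 3 lower, and 4 of the 8 calls were shared.

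Each inducible catalytic subunit can be set against the constitutive subunit of the same site within a library, per base of gene length, which removes the scaling between libraries. The deposited lengths in bases are 2736 and 899 for Psmb8 and Psmb5, and 3659 and 1872 for Psmb9 and Psmb6. For Psmb10 and Psmb7 they are 1705 and 3421. The length of Psmb8 is 3381 in GENCODE release M21. The percentages, and which form is the major one, rest on these lengths, whereas differences of the log2 ratio do not. The length of the transcript present was not measured. In the RNA of the beta5 site, Psmb8 made up 27.6% ± 6.97 (SD, n = 3) in the Controls of 1A and 35.3% ± 0.679 with HMGB1, 16.7% ± 1.89 and 37.4% ± 2.08 in 1B, and 30.8% ± 6.21 and 51.3% ± 3.16 in 1C. In Protocol 2 it made up 40.4% ± 3.94 without and 39.2% ± 2.92 with HMGB1, and in Protocol 3 27.5% ± 0.800 without and 27.8% ± 2.73 with HMGB1. The log2 ratio of Psmb8 to Psmb5 differed between HMGB1 and Control by 1.57 ± 0.14 in 1B and 1.26 ± 0.27 in 1C, without overlap, and by 0.54 ± 0.29 in 1A, where the groups overlapped (two-sided exact permutation p = 0.3). In Protocols 2 and 3 it differed by -0.07 ± 0.17 and 0.01 ± 0.12 (exact permutation p = 0.6 and 0.9).

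At the beta1 site Psmb9 was the minor form. Its share went from 7.87% ± 1.97 in the Controls to 11.9% ± 0.898 with HMGB1 in 1A, from 3.85% ± 0.547 to 10% ± 0.356 in 1B and from 10.4% ± 2.17 to 17.9% ± 0.897 in 1C. It was 18.6% ± 1.15 without and 17.1% ± 2.39 with HMGB1 in Protocol 2, and 3.07% ± 0.119 without and 2.88% ± 0.348 with HMGB1 in Protocol 3, the lowest of the series. The log2 ratio was higher with HMGB1 by 0.69 ± 0.23, 1.48 ± 0.13 and 0.93 ± 0.19 in 1A, 1B and 1C, without overlap in each. It differed by -0.16 ± 0.16 in Protocol 2 and -0.10 ± 0.11 in Protocol 3 (exact permutation p = 0.5 for both). At the beta2 site, by the deposited lengths, Psmb10 was the major form outside Protocol 3. Its share went from 78.8% ± 4.5 to 87.7% ± 0.821 in 1A, from 66.7% ± 1.53 to 88.8% ± 1.07 in 1B and from 79.5% ± 4.38 to 91.6% ± 0.0328 in 1C. It was 81.7% ± 1.89 without and 81.9% ± 2.75 with HMGB1 in Protocol 2, and 39.6% ± 1.43 without and 38.9% ± 1.96 with HMGB1 in Protocol 3. The ratio was higher with HMGB1 by 0.92 ± 0.24, 1.99 ± 0.11 and 1.47 ± 0.23 without overlap, and differed by 0.03 ± 0.18 and -0.04 ± 0.09 in Protocols 2 and 3 (exact permutation p = 0.9 and 0.7).

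With 3 libraries against 3, an exact permutation test cannot go below 0.1, and 15 of the 24 ratio comparisons, all those without overlap, were at that value (Benjamini-Hochberg adjusted p = 0.16 over the 24). None could pass the threshold, and the sizes are given as they stand. Over several members, the mean log2 level of the 5 inducible subunits minus that of the 31 constitutive subunits went from -0.12 to 0.67 in 1A, from -0.96 to 0.63 in 1B and from -0.07 to 1.26 in 1C. It was 0.44 without and 0.43 with HMGB1 in Protocol 2, against -1.58 and -1.64 in Protocol 3. The 5 inducible subunits held 6.64% of the counts of all members in the Controls of 1B and 24.2% in the HMGB1 libraries of 1C, and 4.35% in the Controls of Protocol 3.

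**Figure D2:**
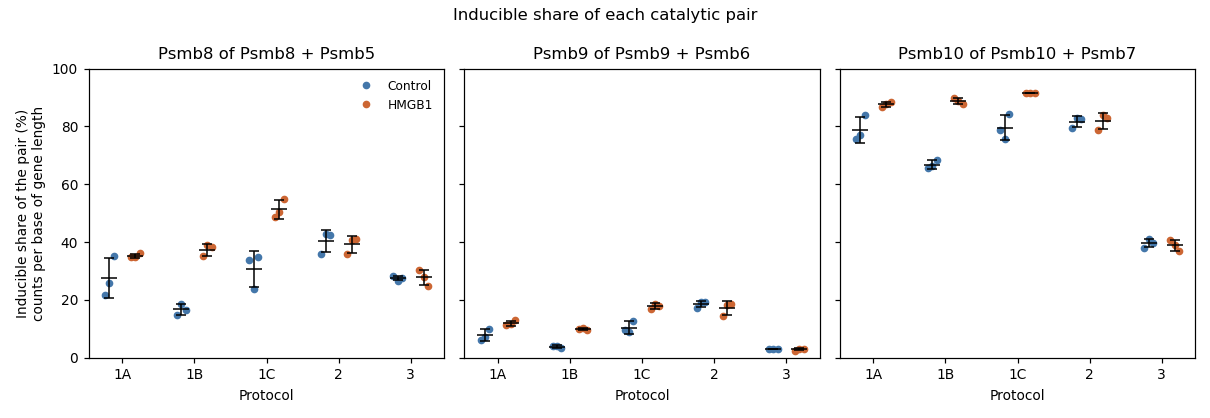
Share of the inducible subunit in the RNA of its catalytic site (percent, counts per base of gene length) in each library by protocol, Control in blue and HMGB1 in orange, with bars at mean ± SD of 3 libraries, for Psmb8 with Psmb5, Psmb9 with Psmb6 and Psmb10 with Psmb7. The share of Psmb10 reached 91.6% in 1C with HMGB1 and was 39.6% in the Controls of Protocol 3.

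The constitutive subunits rose as well in the neonatal protocols, by less. Of the 49 members that passed the filter on low counts in 1A, 42 rose and 0 fell, beside 29.7% and 31.6% of 13489 genes. In 1B, 43 rose and 2 fell, beside 29.8% and 32.0% of 13598 genes, and in 1C, 38 rose and 3 fell, beside 28.4% and 31.8% of 14328 genes. The one member left out by the filter was Psmb11, the thymic subunit, with 9 counts over all 30 libraries. All 31 constitutive subunits rose in 1A and 1B, with medians of 0.57 and 0.62, and 28 of 31 rose in 1C, with a median of 0.40. The 5 inducible subunits had medians of 1.46, 2.53 and 1.97, and all genes tested had -0.04, -0.02 and -0.04. In all 3 protocols 37 members rose, 28 of them constitutive, and 0 fell. The share of all genes that rose or fell in all 3 is not given here, so this joint count has no background beside it. With no filter on low counts, 31 members rose in 1C. Psma1, Psmc2, Psmc3, Psmc5, Psmd3, Psmd4 and Psmg4 then no longer passed there (edgeR adjusted p = 0.0598 to 0.121).

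Of the constitutive catalytic subunits, Psmb6 had the largest response in 1A, 1B and 1C. Psmb6 was at 194, 216 and 221 CPM in the Controls of 1A and 419.5, 381 and 398 CPM with HMGB1, at 209.9, 226 and 224 CPM without and 433, 465 and 485 CPM with HMGB1 in 1B, and at 163, 158 and 172 CPM without and 334, 333 and 367 CPM with HMGB1 in 1C. It was at 169, 161 and 186 CPM without and 195, 181 and 189 CPM with HMGB1 in Protocol 2 and at 244, 238 and 198 CPM without and 244, 211 and 178 CPM with HMGB1 in Protocol 3. The neonatal groups did not overlap, with responses of 0.90 ± 0.07 (adjusted p = 8.34e-08), 1.07 ± 0.07 (adjusted p = 2e-07) and 1.08 ± 0.09 (adjusted p = 8.73e-07) in 1A, 1B and 1C, and the adult groups overlapped. Psmb5 was at 71.3, 76.3 and 69.6 CPM in the Controls of 1A and 125, 114 and 119 CPM with HMGB1, at 71.8, 71.4 and 67.5 CPM without and 107, 104 and 111 CPM with HMGB1 in 1B, and at 54.5, 65.5 and 64.6 CPM without and 85.9, 88.2 and 80.3 CPM with HMGB1 in 1C. It was at 79.4, 65.4 and 72.0 CPM without and 80.4, 75.3 and 77.5 CPM with HMGB1 in Protocol 2 and at 29.4, 34.6 and 29.9 CPM without and 30.3, 27.7 and 25.7 CPM with HMGB1 in Protocol 3. Its neonatal responses, again without overlap, were 0.69 ± 0.07 (adjusted p = 8.41e-07), 0.61 ± 0.06 (adjusted p = 7e-06) and 0.47 ± 0.09 (adjusted p = 0.000998).

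Psmb7 was at 51.3, 57.9 and 56.2 CPM in the Controls of 1A and 88.8, 79.2 and 84.7 CPM with HMGB1, at 54.6, 58.3 and 50.6 CPM without and 69.2, 81.4 and 87.3 CPM with HMGB1 in 1B, and at 50.9, 53.2 and 48.7 CPM without and 73.1, 82.0 and 81.8 CPM with HMGB1 in 1C. It was at 61.1, 56.1 and 61.3 CPM without and 61.4, 53.7 and 60.8 CPM with HMGB1 in Protocol 2 and at 74.6, 73.7 and 70.6 CPM without and 76.9, 64.8 and 70.1 CPM with HMGB1 in Protocol 3. The neonatal groups were apart and the adult groups overlapped, with responses of 0.59 ± 0.07 (adjusted p = 8.07e-06), 0.55 ± 0.09 (adjusted p = 0.000447) and 0.64 ± 0.09 (adjusted p = 5.36e-05) in 1A, 1B and 1C.

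Of the alpha ring, which gates the core, all 7 members rose in each neonatal protocol, with medians of 0.78, 1.02 and 0.98. Psma5 rose most among constitutive subunits, from 53.4 ± 6.2 to 118 ± 5.69 CPM (SD, n = 3) in 1A and from 50.3 ± 5.78 to 145 ± 3.42 CPM in 1C, with responses of 1.12 ± 0.08 (adjusted p = 2.53e-08), 1.52 ± 0.08 (adjusted p = 4.15e-08) and 1.54 ± 0.10 (adjusted p = 7.91e-08) in 1A, 1B and 1C. Psma6 followed at 1.06 ± 0.06, 1.31 ± 0.07 and 1.00 ± 0.09, while Psma1 rose by 0.36 ± 0.06, 0.28 ± 0.06 and 0.24 ± 0.09. The 4 structural beta subunits all rose, from 0.22 (Psmb1) to 0.67 (Psmb4) in 1A.

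Of the 19S cap, all 17 subunits rose in 1A and 1B, with medians of 0.54 and 0.62, and 14 rose in 1C, with a median of 0.26, where the 14 subunits of the 20S core had a median of 0.67. The 3 that did not pass in 1C were the ATPase Psmc1 at 0.22 ± 0.11 and the base scaffolds Psmd1 at 0.08 ± 0.09 and Psmd2 at 0.21 ± 0.09. Among ATPases, which unfold the substrate, Psmc5 rose by 0.49 ± 0.08, 0.70 ± 0.06 and 0.22 ± 0.09 in 1A, 1B and 1C. In the lid, Psmd7, partner of the deubiquitinase Psmd14, rose by 0.79 ± 0.07, 0.88 ± 0.06 and 0.75 ± 0.08, Psmd14 itself by 0.62 ± 0.06, 0.80 ± 0.06 and 0.57 ± 0.09, and Psmd11 by 0.78 ± 0.07, 1.02 ± 0.07 and 0.68 ± 0.09. Per base of gene length, Psmb6 or Psmd8 had the highest level of the 31 in each group and the median was 27.8 to 44.2 CPM per kb.

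The assembly chaperones did not move as a block. Psmd10, the chaperone gankyrin of the 19S base, rose most, outside the inducible subunits and Psme2b, in 1A and 1B. It went from 27.7 ± 3.55 to 77.1 ± 3.01 CPM in 1A, 23.0 ± 1.67 to 71.0 ± 5.10 CPM in 1B and 24.8 ± 1.15 to 66.8 ± 2.77 CPM in 1C. Its responses were 1.45 ± 0.09 (adjusted p = 4.43e-09), 1.63 ± 0.08 (adjusted p = 4.23e-08) and 1.43 ± 0.09 (adjusted p = 6.96e-08). Psmd5, another chaperone of the 19S base, was the single member that rose in some neonatal protocols and fell in another, at 0.21 ± 0.07 (adjusted p = 0.0239) in 1A, 0.55 ± 0.06 (adjusted p = 2.34e-05) in 1B and -0.52 ± 0.14 (adjusted p = 0.00612) in 1C, and the call in 1A was lost without Control replicate 2 or 3. The alpha ring chaperone Psmg2 fell at -0.46 ± 0.12 (adjusted p = 0.00716) in 1B and -0.74 ± 0.16 (adjusted p = 0.00201) in 1C, with -0.17 ± 0.14 in 1A, which did not pass. Its partner Psmg1 fell at -0.53 ± 0.17 (adjusted p = 0.0196) in 1C, a call lost without 1C Control replicate 1 or HMGB1 replicate 3, with 0.33 ± 0.15 in 1A and -0.31 ± 0.14 in 1B. Psmg4 rose by 0.37 ± 0.12 in 1B and 0.34 ± 0.13 in 1C, and Psmd9 and Psmg3 passed in none of the 3. Over the 7, the medians were 0.08, 0.21 and 0.05, with 2, 3 and 2 that rose and 0, 1 and 3 that fell in 1A, 1B and 1C.

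Psme4, the nuclear activator PA200, rose by 0.73 ± 0.06, 0.94 ± 0.07 and 0.99 ± 0.10 in 1A, 1B and 1C, and Psme3, which forms PA28 gamma, by 0.43 ± 0.06 in 1A and 0.49 ± 0.06 in 1B, with 0.10 ± 0.09 in 1C, which did not pass. The inhibitor Psmf1 rose by 0.32 ± 0.09, 0.33 ± 0.08 and 0.56 ± 0.10. Psma8, a testis subunit, had at most 106 counts in any library and passed in none of the 3. Psmc3ip, which is a meiotic recombination factor and no subunit, fell by 0.79 ± 0.29 in 1B (adjusted p = 0.0377), a call lost in 5 of 6 fits that left out 1 library, all but the one without HMGB1 replicate 3.

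**Figure D3:**
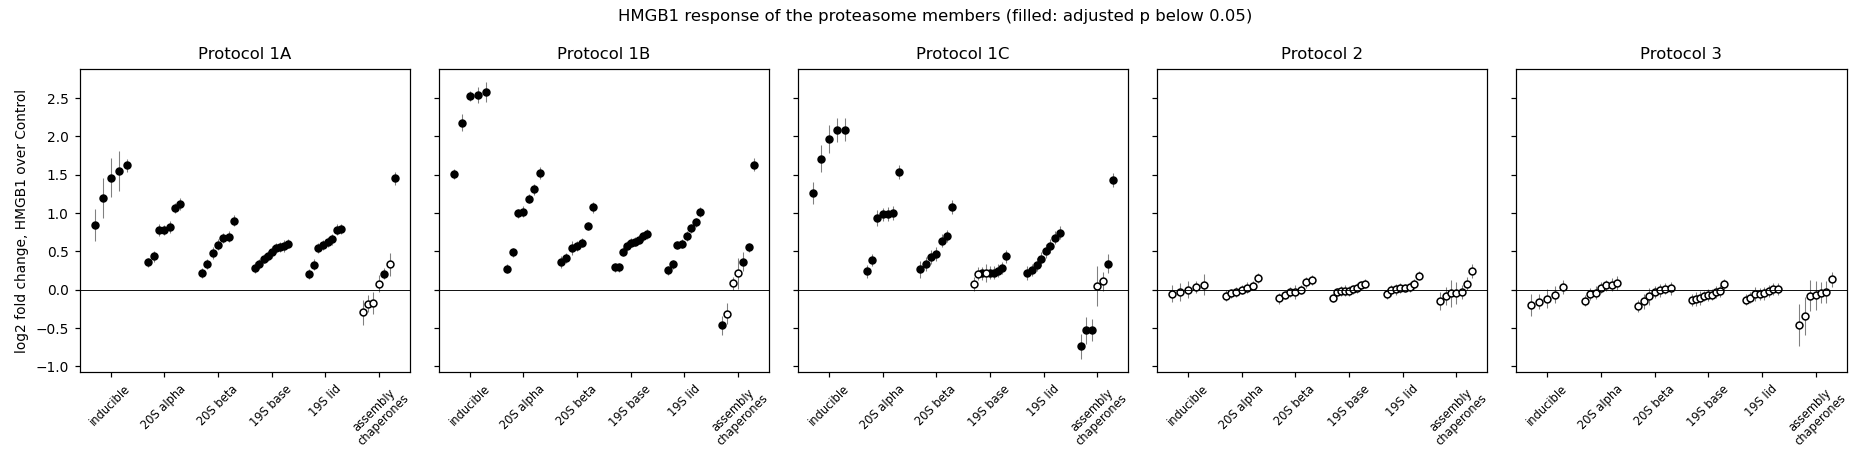
Response to HMGB1 of the members by role in each of the 5 protocols (log2 fold change ± SE), with filled points where the adjusted p was below 0.05. In 1A, 1B and 1C the inducible subunits have the highest median of these roles, at 1.46, 2.53 and 1.97, and in Protocols 2 and 3 no point is filled.

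In microglia from adults no member passed. In Protocol 2, 0 of 49 members were called by edgeR, beside 1.21% of 15564 genes higher and 0.283% lower. At an unadjusted p below 0.05 there were 3, all higher, beside 9.11% of all genes. DESeq2 called 0 after adjustment and 2 before, beside 7.4% of all genes before adjustment. The medians were 0.00 for the inducible and 0.00 for the constitutive subunits. With the replicate number as a block, 4 members rose and none fell, beside 4.63% and 3.31% of all genes. They were Psmd10 at 0.24 ± 0.07 (adjusted p = 0.0185), Psmd7 at 0.18 ± 0.05 (adjusted p = 0.0131), Psma6 at 0.15 ± 0.05 (adjusted p = 0.0342) and Psmb6 at 0.13 ± 0.04 (adjusted p = 0.0421), and none is an inducible subunit.

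In Protocol 3, 0 of 48 members were called by edgeR, beside 0.123% of 15401 genes higher and 0% lower, so that few genes of any kind were called there. Psma8, at 4 to 12 counts a library, did not pass the filter. At an unadjusted p below 0.05 there was 1 member, which was lower, beside 5.23% of all genes. DESeq2 called 0 after adjustment and 1 before, beside 3.6% of all genes before adjustment. The replicate block called 0 members, beside 1.70% and 0.468% of all genes. The medians were -0.11 for the inducible and -0.04 for the constitutive subunits.

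The difference between responses was tested directly over all 30 libraries. Against the mean response of the 3 neonatal protocols, 42 members had a lower response in Protocol 2 and 0 a higher one, beside 20.6% and 22.9% of 18182 genes. In Protocol 3, 41 were lower and 1, Psma8, was higher, beside 22.5% and 20.2%. All 5 inducible and all 31 constitutive subunits were among those lower, with medians of -2.02 (inducible) and -0.49 (constitutive) for Protocol 2. For Protocol 3 these medians were -2.10 and -0.59, and the medians of all genes were 0.06 and 0.00 for the respective protocols. Psmb9 differed by -2.05 ± 0.22 (adjusted p = 3.84e-08) in Protocol 2 and -2.24 ± 0.24 (adjusted p = 6.82e-08) in Protocol 3, and Psme2 by -2.03 ± 0.18 (adjusted p = 9.48e-10) and -2.27 ± 0.19 (adjusted p = 2.26e-10). Of the constitutive subunits, Psma5 differed most, by -1.47 ± 0.10 (adjusted p = 7.25e-14) and -1.47 ± 0.10 (adjusted p = 8.44e-14). Between Protocols 3 and 2, 0 members differed by edgeR, beside 0.0220% of all genes higher and 0.346% lower. At an unadjusted p below 0.05 there were 4 members, beside 5.61% of all genes. DESeq2 called 0 after adjustment and 1 before, beside 5.29% of all genes before adjustment. The comparisons with Protocol 1 share the neonatal libraries.

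The resting levels set the inducible and constitutive subunits apart in another way. In Controls, all 5 inducible subunits were lowest in Protocol 3 and highest in Protocol 2, while the constitutive subunits went in both directions. Between Protocols 2 and 3, 24 members were higher and 17 lower in Protocol 2, beside 40.1% and 37.2% of 17033 genes. Between Protocols 1 and 3, 23 were higher and 17 lower in Protocol 1, beside 37.3% and 42.9%, and DESeq2 size factors gave 22 and 21. These comparisons share the Protocol 3 Controls, and most genes of any kind differed in them. The inducible subunits had medians of 1.96 and 0.85, the constitutive subunits -0.17 and -0.16, and all genes 0.08 and -0.12.

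Psmb10 was 5.26 times as high in Protocol 2 as in Protocol 3, at 2.40 ± 0.22 (adjusted p = 4.22e-07), and Psmb9 was at 2.37 ± 0.24 (adjusted p = 1.66e-06) and Psmb8 at 1.96 ± 0.23 (adjusted p = 8.86e-06). Psme1 differed by 1.48 ± 0.18 (adjusted p = 4.68e-06) and Psme2 by 1.32 ± 0.18 (adjusted p = 1.9e-05). The ranges of these 5 genes did not overlap between the protocols, which was so for 42 of the 49 members tested and is not particular to them. The share of all genes without overlap is not given here. Of all genes, 78.5% had an unadjusted edgeR p below 0.05 in this comparison. Against Protocol 3, the mean of the neonatal Controls was higher by 1.76 ± 0.19 (adjusted p = 1.96e-06) for Psmb10, 0.97 ± 0.21 (adjusted p = 0.000955) for Psmb9 and 0.85 ± 0.20 (adjusted p = 0.00173) for Psmb8, and the libraries of Psmb9 and Psme2 overlapped. The nearest was 1B. Psmb9 was at 17.2 ± 2.39 CPM in 1B and 14 ± 1.92 CPM in Protocol 3 (SD, n = 3). Per site, the log2 ratio of Psmb10 to Psmb7 was higher in the Controls of Protocol 2 than of 3 by 2.77 ± 0.11 and that of Psmb9 to Psmb6 by 2.85 ± 0.07. For Psmb8 to Psmb5 it was higher by 0.83 ± 0.14, each without overlap. Between 1A and Protocol 3 the ratio of Psmb8 to Psmb5 differed by -0.02 ± 0.29 (exact permutation p = 0.9). Psmb5 itself was at 31.3 ± 2.85 CPM in Protocol 3 and 72.4 ± 3.48 CPM in 1A.

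Among constitutive subunits, more of the 19S cap was higher than lower in Protocol 3, and the 20S core divided. Of 17 cap subunits, 12 were lower and 2 higher in Protocol 2 than in 3, with a median of -0.32, and 12 were lower and 2 higher in Protocol 1, with a median of -0.45. With no filter on low counts, Psmc1, Psmc5, Psmd3, Psmd4 and Psmd6 no longer passed for Protocol 2 against 3 (edgeR adjusted p = 0.0834 to 0.774). Psmd6 was also lost with only the groups compared in the fit (adjusted p = 0.165). For Protocol 1 against 3, Psmd3 was lost with no filter (adjusted p = 0.963). Of the 14 core subunits, 7 were higher and 4 lower in Protocol 2, with a median of 0.21, and 5 were higher and 4 lower in Protocol 1, with a median of 0.04. The lid subunit Psmd11 stood farthest apart, at 291, 278 and 249 CPM in the Controls of Protocol 3, 75.3, 72.8 and 77.0 CPM in Protocol 2 and 68.3, 63.2 and 71.1 CPM in 1A. Its differences were -2.11 ± 0.05 (adjusted p = 4.66e-18) for Protocol 1 and -1.95 ± 0.07 (adjusted p = 5.08e-15) for Protocol 2 against 3, and the lid subunit Psmd12 had -1.38 ± 0.06 (adjusted p = 1.43e-14) and -1.38 ± 0.08 (adjusted p = 2.16e-12). In the opposite direction were the lid subunit Psmd13, at 1.25 ± 0.06 (adjusted p = 1.59e-13) and 1.14 ± 0.07 (adjusted p = 9.33e-12), the alpha ring subunit Psma1, at 1.19 ± 0.06 (adjusted p = 2.47e-13) and 1.38 ± 0.07 (adjusted p = 3.84e-13), and Psmb5, at 1.07 ± 0.08 (adjusted p = 8.81e-11) and 1.12 ± 0.09 (adjusted p = 5.2e-10). Psmc3 and Psmc4, ATPases, and Psmb3 passed in neither, with -0.05 ± 0.08, -0.11 ± 0.08 and 0.03 ± 0.08 for Protocol 2 against 3.

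The chaperones were higher in culture, with 6 of 7 above Protocol 3 in both comparisons and medians of 1.15 for Protocol 1 and 1.10 for Protocol 2. Psmg2 differed by 1.5 ± 0.13 and 1.35 ± 0.15, Psmg4 by 1.29 ± 0.12 and 0.94 ± 0.13, Psmd10 by 1.15 ± 0.10 and 1.17 ± 0.11, and Psmd5, which did not pass, by 0.13 ± 0.09 and -0.15 ± 0.11. The inhibitor Psmf1 was higher by 0.85 ± 0.09 and 1.38 ± 0.10. Psma8 had the largest differences of all members, 2.91 ± 0.39 and 3.70 ± 0.42, at 0.238 ± 0.0889 CPM in Protocol 3 and 3.32 ± 0.557 CPM in Protocol 2.

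Between the Controls of Protocols 1 and 2, 6 members were higher and 21 lower in Protocol 1, beside 24.6% and 30.7% of all genes. All 5 inducible subunits were lower, with -1.40 ± 0.17 (adjusted p = 2.17e-05) for Psmb9, -1.10 ± 0.17 (adjusted p = 0.000178) for Psmb8 and -0.76 ± 0.14 (adjusted p = 0.000369) for Psme1. Psme2 was at -0.70 ± 0.14 (adjusted p = 0.000862) and Psmb10 at -0.63 ± 0.16 (adjusted p = 0.00466), and with Protocol 1A alone as Protocol 1 neither passed (-0.37, adjusted p = 0.0981, and -0.30, adjusted p = 0.232). The constitutive subunits had a median of -0.11. Beside these differences, the summed fibroblast and mural markers were at 197 to 309.8 CPM in Protocol 2 and 18.9 to 26.1 CPM in Protocol 3. They were at 2.30 to 3.77 CPM in 1A, 27.4 to 90.4 CPM in 1B and 47.4 to 97.2 CPM in 1C. The summed neutrophil, B cell and endothelial markers were highest in Protocol 3. The part of these cells in the Control differences was not tested.

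**Figure D4:**
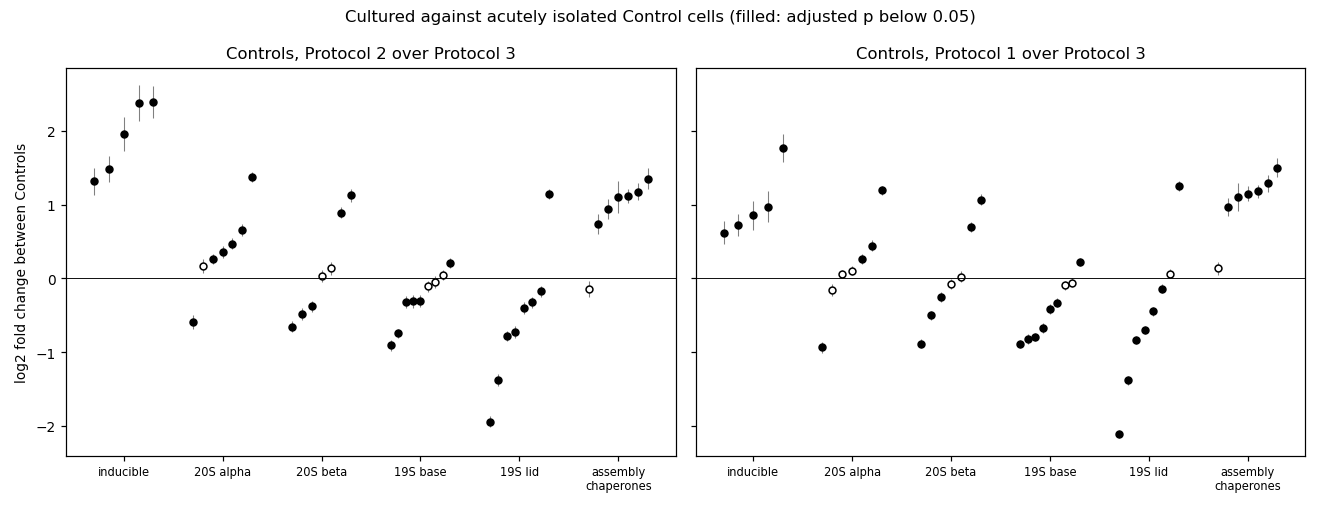
Difference between Control libraries (log2 fold change ± SE) of the members by role, Protocol 2 over Protocol 3 and Protocol 1 over Protocol 3, with filled points where the adjusted p was below 0.05. The 5 inducible subunits lie above 0 in both, at medians of 1.96 and 0.85, and Psmd11 lies lowest at -1.95 and -2.11.

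The genes that work with the proteasome were followed from 4 further lists, to be read against the shares of all genes called in the same comparison. Of all genes, 29.7%, 29.8% and 28.4% rose in 1A, 1B and 1C and 31.6%, 32.0% and 31.8% fell. Class I peptide loading, which uses the peptides made by the immunoproteasome, rose in 11 of 11 genes in 1A and 1B and in 8 of 11 in 1C, with no gene that fell. Tap1, the peptide transporter that neighbours Psmb9, rose by 2.63 ± 0.39, 4.22 ± 0.10 and 3.37 ± 0.32 in 1A, 1B and 1C, its partner Tap2 by 2.00 ± 0.11, 2.98 ± 0.09 and 2.72 ± 0.12 and the loading factor Tapbp by 1.20 ± 0.27, 2.35 ± 0.08 and 1.81 ± 0.18. None of the 11 passed in Protocols 2 and 3. In Controls, Protocol 2 had 9 of 11 above and 1 below Protocol 3, beside 40.1% and 37.2% of all genes. Between 1B and 1A, 8 of 11 were lower in 1B and 0 higher, beside 12.6% and 18.2%.

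Of 7 genes for the transcription of proteasome genes, 6 rose and 1 fell in 1A and in 1B, and 5 rose and 1 fell in 1C. Of all genes, 28.4% to 29.8% rose and 31.6% to 32.0% fell. Irf1, a transcription factor that acts on the inducible subunits, went from 49.2 to 497 CPM in 1A, 26.5 to 642 CPM in 1B and 70.5 to 1022 CPM in 1C, with responses of 3.31 ± 0.11, 4.6 ± 0.08 and 3.86 ± 0.17. Nlrc5, the activator of MHC class I genes, rose by 2.69 ± 0.34, 4.13 ± 0.13 and 3.58 ± 0.23. Nfe2l1, which drives the constitutive subunits, rose by 0.65 ± 0.08, 0.67 ± 0.06 and 0.45 ± 0.09, while Ddi2, the protease that activates its product, fell, with -1.66 ± 0.06, -1.94 ± 0.08 and -1.97 ± 0.09. In Protocol 2, Nfe2l2 rose, at 0.33 ± 0.07 (adjusted p = 0.0312), and was the single call of the 7, where the replicate block called 3 higher and 1 lower. None of the 7 passed in Protocol 3. Irf1 was at 260.0 CPM in the Controls of Protocol 3, where the inducible subunits were lowest, against 51.4 CPM in Protocol 2.

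Of 14 partners that lack the Psm name, 10 rose and 1 fell in 1A, 10 and 2 in 1B and 6 and 1 in 1C. Of all genes, 29.7%, 29.8% and 28.4% rose and 31.6%, 32.0% and 31.8% fell. Pomp, which matures the core, rose by 0.51 ± 0.07, 0.65 ± 0.06 and 0.67 ± 0.08, the associated thioredoxin Txnl1 by 0.80 ± 0.08, 0.89 ± 0.06 and 0.53 ± 0.09 and the proteasome activator Zfand5 by 0.95 ± 0.06, 0.74 ± 0.09 and 0.25 ± 0.08. The shuttle factor Ubqln2 fell, with -0.48 ± 0.09, -0.71 ± 0.08 and -1.03 ± 0.11. In Controls, Protocol 2 had 5 of 14 partners above and 9 below Protocol 3, beside 40.1% and 37.2% of all genes. Zfand5 differed by -2.92 ± 0.07 (adjusted p = 1.02e-17). Of 5 ubiquitin genes, 4, 3 and 3 rose in 1A, 1B and 1C and none fell, beside the same shares of all genes as for the partners. None of the partners or ubiquitin genes passed in the responses of Protocols 2 and 3.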

How the data were processed

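The submitters' processing notes name HISAT2 2.0.5 for alignment and featureCounts 1.5.0-p3 for counting, and the authors deposited whole-number counts of 54532 genes in 30 libraries with the length of each gene in bases. The genome build and the strand setting are not given in the sources used here. Gene positions matched GENCODE release M21 for 98.3% of 54495 shared identifiers and for 48 of the 50 members, of which 24 overlap another gene and have uncertain counts. No library pair held identical values, and replicates, which the labels call biological, differed by more than sampling noise.

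The members and gene lists were chosen with earlier results of these data known. Fits used R 4.3.3 and edgeR 4.0.16 (filterByExpr, TMM, robust glmQLFit, glmQLFTest), within the 6 libraries of a protocol for the response, over 15 Control libraries, and over all 30 for differences between responses, where Protocol 1 is an average over 1A, 1B and 1C. P values were adjusted by Benjamini-Hochberg over all genes tested, with a threshold of 0.05. The scripts were tested on simulated data. Values in every library are given for the 5 inducible subunits and Psmb5, Psmb6 and Psmb7. Beyond these, the text names up to 3 members per role with the smallest adjusted p, up to 2 abundant ones that missed the threshold, the largest rise and fall, and the members that match by name only. Of the other lists it takes up to 4 genes that passed and up to 2 that did not, and any other name was chosen after its values were seen. A few genes of these lists are counted in them but not reported here by name.

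Pairing was judged from how the deviations of same-numbered Control and HMGB1 libraries from their group means correlate. This was above 0.1 for every pair in 1B (0.176, 0.319 and 0.409), Protocol 2 (0.429, 0.285 and 0.28) and Protocol 3 (0.21, 0.191 and 0.283), and not in 1A or 1C (0.029 to 0.145). The replicate block is given beside Protocols 2 and 3. Other alternatives were DESeq2 1.42.0 (Wald test and size factors), no filter, a minimum log2 fold change of 1, other sets of libraries in the fit and leaving out each library.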

Additional observations from a re-analysis of the deposited data

Results flagged for a closer look

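The responses to HMGB1 differed between protocols by the test of the difference itself, over all 30 libraries with edgeR. Of the members, 42 differed between Protocol 2 and Protocol 1. There the difference was -1.65 for Psmb8, -2.05 for Psmb9, -2.02 for Psmb10, -1.25 for Psme1 and -2.03 for Psme2, and -0.49 for Psmb5, -0.89 for Psmb6 and -0.62 for Psmb7. Between Protocol 3 and Protocol 1, 42 members differed. The difference was -1.83 for Psmb8, -2.24 for Psmb9, -2.10 for Psmb10, -1.19 for Psme1 and -2.27 for Psme2, and -0.76 for Psmb5, -1.12 for Psmb6 and -0.64 for Psmb7. Psma8 went the other way at 1.32, from 4 to 12 counts a library in Protocol 3, and was lost in 11 of 24 fits that left out 1 library, over which it ranged from 0.86 to 1.65 (adjusted p up to 0.288).

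Between 1B and 1A, 6 members differed, among them Psmb10 at 1.04, Psmb8 at 0.96, Psmb9 at 0.96, Psme2 at 0.93 and Psmg1 at -0.67. The call of Psmg1 was lost in 7 of 12 fits that left out 1 library. Between 1C and 1A, 8 members differed, from -0.89 for Psmg1 to 0.39 for Psma5. Outlying samples were not looked for, because each group has 3 libraries.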

How the results depend on the processing

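No result past the threshold changed direction under the alternatives run. A minimum absolute log2 fold change of 1 left 8 members in the response of 1A, 13 in 1B and 9 in 1C, 12, 17 and 2 between the Controls of Protocols 1 and 3, 2 and 3, and 1 and 2, 1 between 1B and 1A and 0 between 1C and 1A. In the differences between responses it left 9 for Protocol 2 against 1, 11 for Protocol 3 against 1, 1 for 1B against 1A and 0 for 1C against 1A. The replicate block called 4 members in Protocol 2 (0 without it) and 13 for the response of 1C against 1A (8 without it), and moved no other count of members by over 1.5 times. In the other gene lists it called 4 transcription genes in Protocol 2 (1 without it). In the response of 1B against 1A it called 8 class I loading genes (4 without it) and 4 transcription genes (2 without it), and in that of 1C against 1A 5 of each (1 and 3 without it). With no filter, the response of 1C against 1A had 7 members higher and 3 lower (1 and 7 with the filter). With only the groups compared in the fit, 22 members differed between the Controls of 1B and 1A (12 with all Controls). Between those of 1C and 1A the count was 4, and 7 with the DESeq2 Wald test, 7 with DESeq2 size factors and 2 with no filter. The cause of these shifts was not tested, apart from the minimum fold change, which removes smaller changes by construction. Shares of all genes called are given above for the replicate block in Protocols 2 and 3 only. For the other alternatives, shifts of the members and of all genes cannot be told apart here.

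With 1 library left out, the counts ranged from 38 to 42 in 1A, 43 to 45 in 1B and 32 to 38 in 1C, and stayed at 0 in Protocols 2 and 3. Between the Controls of 1C and 1A they ranged from 1 (without 1A Control replicate 3) to 4, with 2 without 1A Control replicate 2. For the response of 1B against 1A they ranged from 2 to 7. They were 2 without 1A Control replicate 3, 1B Control replicate 1 or 1B HMGB1 replicate 2, and 3 without 1A HMGB1 replicate 1 or 2, 1B Control replicate 3 or 1B HMGB1 replicate 3. The log2 ratio of Psmb8 to Psmb5 in 1A ranged from 0.32 to 0.81 (without Control replicate 1 and 3). Depth limits Psma8, with 4 to 12 counts a library in Protocol 3, and Psmb11, with 9 counts over all libraries.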
